A study of Mus musculus with 9 samples.

Results

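The imprinted Dlk1-Dio3 locus on mouse chromosome 12 carries a large cluster of miRNA genes, and its mature miRNAs were followed here in exosomes released by mouse liver. The members were the mature miRNAs of a fixed list of 60 names, matched exactly to the names in the deposited table (mmu-miR-127-3p and so on, written below without the species prefix). Of these, 41 had a row among the 722 entries of the table. The other 19 had none and were not analysed here, among them the second strands of the leading hairpins, miR-127-5p and miR-411-3p, and the known members miR-370-3p, miR-494-3p and miR-758-3p. The 9 libraries formed 3 groups of 3. Flox chow libraries came from mice with a floxed Hsp90ab1 gene (encoding Hsp90β) on chow diet, flox HFFC libraries from such mice on the HFFC diet (rich in fat, fructose and cholesterol), and KO HFFC libraries from HFFC-fed knockout mice. Per the study's methods, the knockout was made by crossing floxed mice with Alb-Cre mice, in which the albumin promoter drives Cre in hepatocytes. All 3 groups therefore carry the floxed allele, other liver cells of the knockout keep the gene, and no knockout group on chow was among these libraries. Strain, age and time on the diet are not given in the labels. Exosomes were pelleted from the medium of liver pieces held in collagenase, so vesicles of every liver cell type could contribute.

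The Dlk1-Dio3 locus is imprinted, which means that each of its genes is read from the allele of one parent. The paternal allele expresses the protein-coding genes Dlk1, Rtl1 and Dio3. The maternal allele expresses the long non-coding RNAs Meg3, Rtl1 antisense, Rian and Mirg, and the miRNAs are cut from these transcripts or from the same transcribed stretch. The locus is highly active in the embryo, the placenta, the brain and developing muscle, and is much quieter in adult hepatocytes. The miRNAs that lie opposite Rtl1, such as miR-127 and miR-136, are fully complementary to Rtl1 mRNA and direct its cleavage. The large group from miR-379 to miR-410 has been linked in mice to the response of the liver to glucocorticoids and to lipid handling.

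The 41 members came from 33 hairpins, all on the plus strand of chromosome 12 between 109580233 and 109743795 (GRCm38, GENCODE M21). They were grouped by their stretch of the locus, and the groups were named after a transcript or hairpin there. The proximal Meg3 group held 1 member (miR-493-5p, downstream of the annotated end of Meg3 at 109571726), the Rtl1 antisense group 9, the Rian group 1 (miR-341-3p) and the miR-379/410 group 30. The Rtl1 gene lies at chr12:109589193-109600330 on the minus strand, and 5 of the 6 hairpins of the Rtl1 antisense group lie opposite one of its exons. The sixth hairpin, miR-337, lay in none of the 6 genes of the locus that were looked up (Dlk1, Meg3, Rtl1, Rian, Mirg and Dio3). In the miR-379/410 group, 6 hairpins overlapped an exon of Mirg (chr12:109729764-109749460), 4 lay in a Mirg intron and 15 lay upstream of the annotated start of Mirg.

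The mature sequences of the members on which the results turn are given 5′ to 3′ from RefSeq (GRCm38), with the seed, bases 2 to 8, in capitals. The seed is the stretch that pairs with target mRNAs. The first pair belongs to the Rtl1 antisense group, and the next 4 are the most abundant members and the best-counted low member of the miR-379/410 group.
mmu-miR-127-3p: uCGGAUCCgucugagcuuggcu
mmu-miR-136-5p: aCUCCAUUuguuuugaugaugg
mmu-miR-411-5p: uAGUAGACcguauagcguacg
mmu-miR-379-5p: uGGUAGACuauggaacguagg
mmu-miR-154-5p: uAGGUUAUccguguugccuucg
mmu-miR-409-3p: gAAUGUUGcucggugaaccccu

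The hairpin of miR-127 lies at chr12:109592846-109592915 and that of miR-136 at chr12:109595327-109595388, both opposite an Rtl1 exon. The hairpins of miR-379 (chr12:109709060-109709125) and miR-411 (chr12:109710175-109710256) are neighbours upstream of the annotated Mirg. The hairpins of miR-154 (chr12:109738433-109738498) and miR-409 (chr12:109743158-109743236) lie in Mirg introns. A sequence was found for 38 of the 41 members, and these 38 had 38 different seeds, so the cluster is not 1 seed family. The seeds of miR-379-5p and miR-411-5p differed at 1 of 7 bases, although 7 edits separated the whole sequences. The most similar pairs among the members present are shown next, because reads of near-identical miRNAs can be counted under either name.
mmu-miR-300-3p: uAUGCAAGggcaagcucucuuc
mmu-miR-381-3p: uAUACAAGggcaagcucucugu
mmu-miR-376a-3p: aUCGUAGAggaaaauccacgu
mmu-miR-376b-3p: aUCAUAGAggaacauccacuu

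The members of each pair differed by 3 edits, with a seed difference in both pairs. Over all mature mouse miRNAs in RefSeq, 2 of the 38 members had another miRNA within 2 edits. These were miR-299a-5p, which lay 1 edit from miR-299b-5p, and miR-379-3p, which lay 2 edits from miR-411-3p and shared its seed. The counts of these 2 low members are therefore uncertain. The 4 best-counted members (miR-411-5p, miR-379-5p, miR-127-3p and miR-154-5p) were at least 5 edits from any other. That identical sequences are exchanged in this table was seen outside the cluster, where miR-199a-3p and miR-199b-3p, which do not differ by any base, held 14 and 785 counts in flox chow replicate 1 but 555 and 5 in flox chow replicate 2.

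The libraries held 218256 to 681286 miRNA counts, the lowest in flox chow replicate 3. The cluster took 5508 of 3873973 counts, or 0.142%. Hepatocyte miRNAs (5 of 5 found) took 25.1% to 42.3% of the counts of a library. Flox chow replicate 3 stood apart in muscle miRNAs. Its 4 muscle markers present in the table took 0.604% of counts against at most 0.0280% in the other 8 libraries, with 1029 counts of miR-1a-3p against 25 to 64, while miR-133b-3p had no row. Its cluster share was the lowest of the 9 libraries, and the part of muscle miRNAs in it was not tested. The cluster sum and the log2 fold changes of miR-127-3p, miR-411-5p and miR-379-5p are also given without this library. The neural and endocrine markers (4 of 5 found) took 0.553% to 2.13% of counts, nearly all of it miR-7a-5p, with 1682 to 10340 counts in a library. Of the others on that list, miR-375-3p held 5 to 18 counts and miR-128-3p 0 to 11. miR-9-5p was at 0 in 6 of 9 libraries, and miR-124-3p had no row. The ranges of all 8 marker lists overlapped between flox chow and flox HFFC and between flox HFFC and KO HFFC. Between KO HFFC and flox chow the epithelial list did not overlap, at 0.149% to 0.221% against 0.0568% to 0.109%. The other lists overlapped there too.

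The cluster rested on few of its members. miR-411-5p held 2722 counts, or 49.4% of the cluster, miR-379-5p held 1095 and miR-127-3p held 1030. Together these 3 held 88.0% of all cluster counts. In the order of mean share among the 722 entries they ranked 70 (miR-411-5p), 101 (miR-379-5p) and 105 (miR-127-3p), and miR-154-5p, with 163 counts, ranked 212. These 4 were the members that passed the filter on low counts. The other 37 shared 498 counts, and 19 of the 41 had fewer than 10 counts in all. Only 6 members were found in every library, and 6 were found in 1 library. By group, the miR-379/410 group held 4342 counts (78.8%), the Rtl1 antisense group 1128 (20.5%), the Rian group 29 and the proximal Meg3 group 9.

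**Figure D1:**
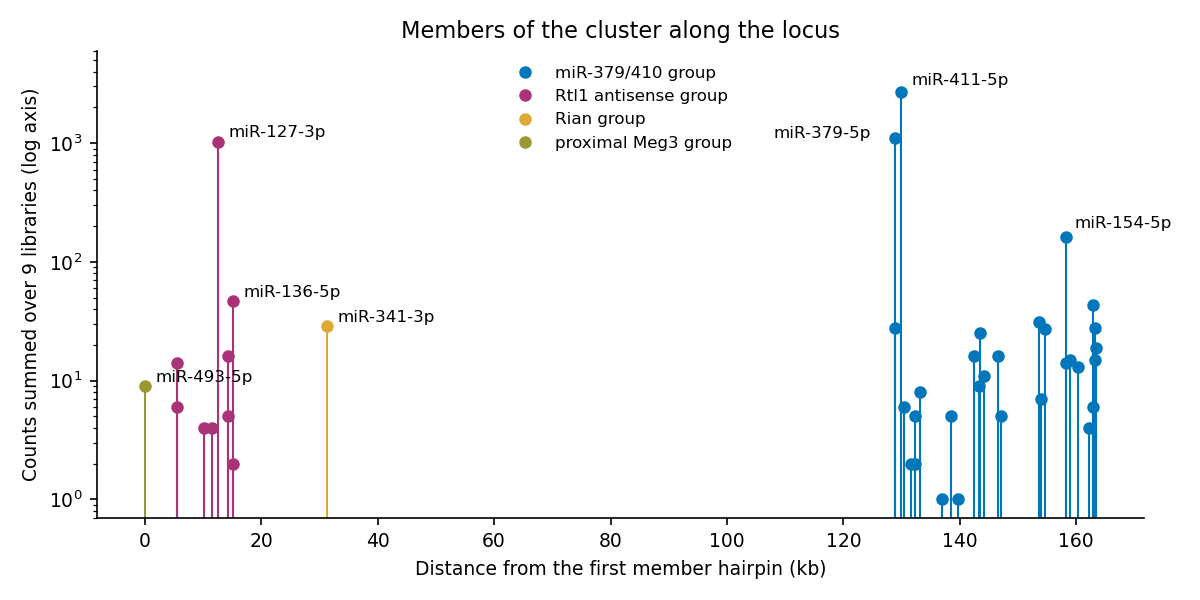
Counts of each member summed over the 9 libraries (y, log axis) against the distance of its hairpin from the first member hairpin (x, kilobases), with the groups in color. The tall stems are miR-127-3p at 1030 counts in the Rtl1 antisense group, and miR-379-5p at 1095 and miR-411-5p at 2722 at the start of the miR-379/410 group.

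The summed cluster was compared first, to ask whether the diet or the knockout moved the locus as a whole. In flox chow the 41 members together took 1139, 1496 and 669 CPM (counts per 1e+06 miRNA counts of the library, mean 1101 ± 415, SD, n = 3). In flox HFFC they took 1457, 1809 and 1172 (1480 ± 319), and in KO HFFC 1540, 1656 and 1259 (1485 ± 204). Counting error was small beside this spread, with 95% Wilson intervals of 569 to 787 CPM in flox chow replicate 3 (146 counts) and of 1705 to 1920 in flox HFFC replicate 2 (1094 counts). The 3 ranges overlapped, and the KO HFFC and flox HFFC means were nearly equal. The log2 ratio of the means was 0.43 for flox HFFC against flox chow, 0.01 for KO HFFC against flox HFFC and 0.43 for KO HFFC against flox chow. Without flox chow replicate 3 the first and the last of these were 0.17 and 0.17. Since the members were chosen with earlier results known, these sums carry no p-value.

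In each group the library with the highest cluster share was replicate 2. Replicate 2 was also the deepest library of each group, with 681286, 604672 and 457678 counts, and the one with the highest share of stellate and other mesenchymal miRNAs (6 of 6 found), 1.49%, 1.44% and 1.95%. It also had the lowest share of hepatocyte miRNAs in each group, 25.3%, 25.1% and 28.3%. The part of depth, of mesenchymal miRNAs and of hepatocyte miRNAs in these levels was not tested. In vesicles from whole liver, fewer vesicles of a cell type and fewer copies of a miRNA per vesicle cannot be told apart.

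Behind the similar sums the members differed in direction. miR-127-3p, the most abundant miRNA opposite Rtl1, was low in flox HFFC. It held 231, 354 and 192 CPM in flox chow (259 ± 84.3, SD, n = 3). In flox HFFC it held 133, 79.4 and 119 (110 ± 27.7). In KO HFFC it held 594, 277 and 398 (423 ± 160). Every flox HFFC library lay below every library of the other groups, whereas flox chow and KO HFFC overlapped.

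Its raw counts were 112, 241 and 42 in flox chow. They were 39, 48 and 48 in flox HFFC and, in KO HFFC, 251, 127 and 122. After pooling the counts of a group, the ratio of flox chow to flox HFFC was 2.75 (exact 95% counting interval 2.26 to 3.37), and that of KO HFFC to flox HFFC was 4.06 (3.35 to 4.95). These intervals cover counting error only and not the spread between mice.

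Against that spread, miR-127-3p did not pass the threshold. In the edgeR quasi-likelihood fit over all 248 tested entries, its log2 fold change was -1.21 ± 0.45 (SE) for flox HFFC against flox chow (adjusted p = 0.917). For KO HFFC against flox HFFC it was 1.72 ± 0.45 (adjusted p = 0.232), with a 95% interval of 0.73 to 2.70. For KO HFFC against flox chow it was 0.50 ± 0.44 (adjusted p = 0.751). The unadjusted p was 0.0191 for the diet and 0.00255 for the knockout, the lowest but 3 and the lowest but 1 of the 248 entries. Under an unadjusted p of 0.05, miR-127-3p was the 1 of the 4 tested members that was lower with the diet, as 2.42% of all entries were, and the 1 of 4 that was higher in the knockout, as 4.84% were. For KO HFFC against flox chow it was 0 of 4, against 6.85% of entries higher and 6.05% lower. No entry passed an adjusted p of 0.05 in edgeR, that is 0.0% of 248 in each comparison, while 11, 20 and 32 had an unadjusted p under 0.05 and DESeq2, run without that filter and with an adjusted p for 718 entries, called 0, 5 and 6, none of them among the 4 members.

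By overlap of the libraries, miR-127-3p was the only one of the 4 tested members whose groups separated. It lay lower in flox HFFC than in flox chow without overlap, as did 3.23% of the 248 tested entries, and higher in KO HFFC than in flox HFFC without overlap, as did 10.5%. Between KO HFFC and flox chow 0 of the 4 separated, against 14.9% of entries in either direction. An exact two-sided permutation test of its share over 3 against 3 libraries gave p = 0.1 for both, the smallest p this design allows, and p = 0.2 for KO HFFC against flox chow (each 0.3 after adjustment over the 6 tests of miR-127-3p and miR-411-5p). Without KO HFFC replicate 1, the library with the highest miR-127-3p, the log2 fold change of the knockout was 1.32, and without flox chow replicate 3 that of the diet was -1.26.

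miR-411-5p, the most abundant member and part of the miR-379/410 group, had its highest levels in flox HFFC. It held 513, 706 and 270 CPM in flox chow (496 ± 218, SD, n = 3). In flox HFFC it held 705, 1130 and 706 (847 ± 245). In KO HFFC it held 543.96, 843 and 463 (617 ± 200). The groups overlapped in every comparison. Its log2 fold change in edgeR was 0.82 ± 0.44 (SE) for the diet (adjusted p = 0.985), -0.71 ± 0.44 for the knockout (adjusted p = 0.689) and 0.10 ± 0.44 for KO HFFC against flox chow (adjusted p = 0.925). The 95% intervals ran from -0.14 to 1.77 for the diet and from -1.67 to 0.24 for the knockout. Without flox chow replicate 3 the log2 fold change was 0.60 for the diet and -0.15 for KO HFFC against flox chow. The exact permutation test gave p = 0.2, p = 0.3 and p = 0.5 (adjusted 0.3, 0.36 and 0.5).

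miR-379-5p, whose hairpin is the neighbour of that of miR-411, held 293, 251 and 105 CPM in flox chow (216 ± 98.3). In flox HFFC it held 473, 433.3 and 208 (372 ± 143), and in KO HFFC 184, 319 and 163 (222 ± 84.5). Its highest libraries were flox HFFC replicates 1 and 2, and the groups overlapped. The log2 fold change was 0.83 ± 0.50 (SE) for the diet (edgeR adjusted p = 0.985) and -1.02 ± 0.50 for the knockout (edgeR adjusted p = 0.629). The 95% interval of the latter ran from -2.11 to 0.08, with an unadjusted edgeR p of 0.0654. Between KO HFFC and flox chow it was -0.19 ± 0.50 (edgeR adjusted p = 0.925). Without flox chow replicate 3 it was 0.56 for the diet and -0.50 for KO HFFC against flox chow.

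miR-154-5p held 10.3, 66.1 and 27.5 CPM in flox chow, 27.2, 69.5 and 14.9 in flox HFFC and, in KO HFFC, 61.5, 26.2 and 42.4. It varied more within a group than between groups, and rested on 5 to 45 counts in a library. Its log2 fold changes of 0.18 ± 0.79, -0.05 ± 0.78 and 0.13 ± 0.79 (SE) were smaller than their errors.

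**Figure D2:**
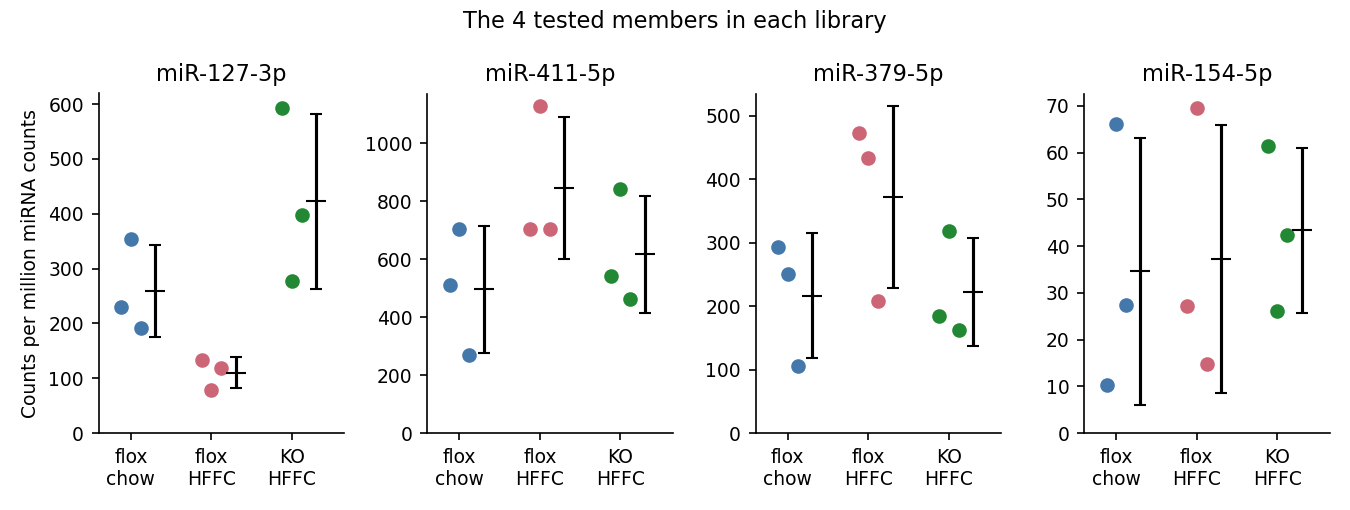
CPM (y, counts per 1e+06 miRNA counts) of the 4 members that passed the low-count filter, in each library (points) of flox chow, flox HFFC and KO HFFC, with the mean and SD of 3 libraries (bars). For miR-127-3p the flox HFFC libraries, at 79.4 to 133, lie below all others, while the groups of miR-411-5p, miR-379-5p and miR-154-5p overlap.

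As a set, the 4 tested members had a median log2 fold change of 0.50 for the diet against -0.02 over all 248 entries, with 3 of 4 above 0 against 48.4% of all. For the knockout the median was -0.38 against -0.03, with 1 of 4 above 0 against 48.4%. For KO HFFC against flox chow it was 0.12 against -0.05, with 3 of 4 above 0 against 47.6%. In each comparison the median lay midway between miR-411-5p and miR-154-5p. In the diet and knockout comparisons miR-127-3p had the opposite sign to miR-411-5p and miR-379-5p. These comparisons share libraries, the flox HFFC group entering both the diet and the knockout comparison, so a low flox HFFC level alone gives opposite signs in them.

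**Figure D3:**
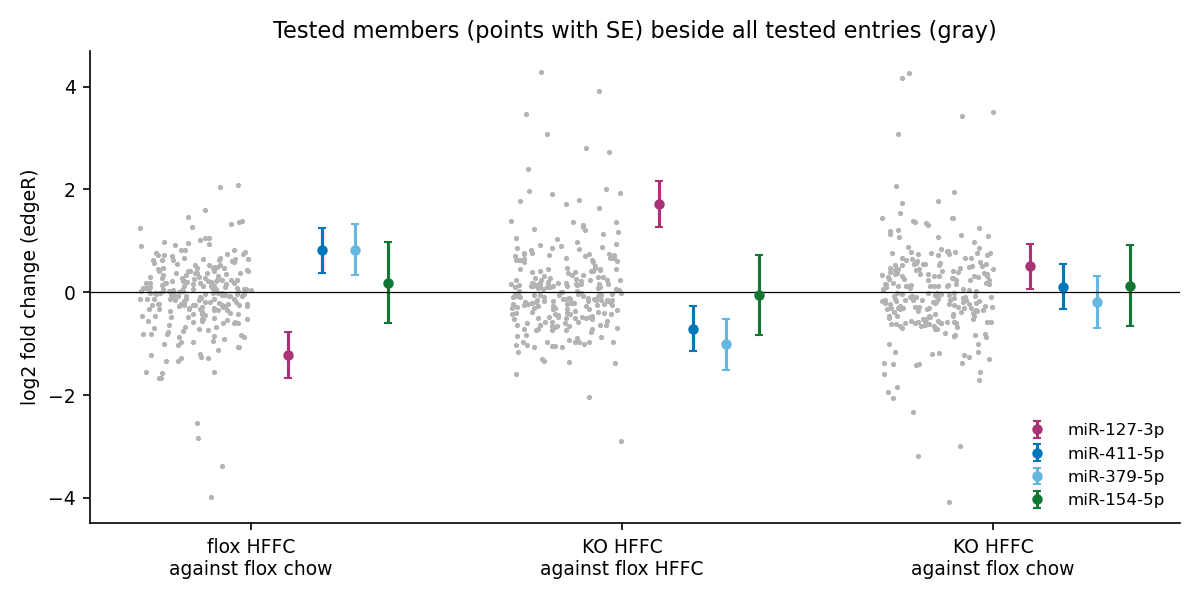
Log2 fold changes from edgeR (y) in the 3 comparisons (x), with the 4 tested members as colored points with their SE and all 248 tested entries as gray points. miR-127-3p lies at -1.21 for the diet and 1.72 for the knockout, and miR-411-5p and miR-379-5p lie on the other side of 0 in both.

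Because the total count of a library cancels in a ratio of members, the balance of miR-127-3p to miR-411-5p was also taken within each library. It was 0.450, 0.501 and 0.712 in flox chow, 0.188, 0.0703 and 0.168 in flox HFFC and, in KO HFFC, 1.09, 0.329 and 0.859. The flox HFFC libraries lay below all others, and miR-127-3p outnumbered miR-411-5p in 1 library, KO HFFC replicate 1. The mean ratio of flox chow was 3.89 times that of flox HFFC and that of KO HFFC 5.34 times. The balance of the neighbours miR-379-5p and miR-411-5p was steadier. It ran from 0.295 to 0.671 over the 9 libraries, a range of 2.28-fold, against 15.5-fold for miR-127-3p to miR-411-5p. These ratios were chosen after the values of the members were seen and are given as a description, with no test.

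The groups of the locus were also summed. Here the Rtl1 antisense group largely repeats miR-127-3p, which held 1030 of its 1128 counts. Its 9 members together took 270, 396 and 206 CPM in flox chow, 133, 84.3 and 129 in flox HFFC and, in KO HFFC, 629, 328 and 404. As a share of all cluster counts this was 23.7%, 26.5% and 30.8% in flox chow, 9.11%, 4.66% and 11.0% in flox HFFC and, in KO HFFC, 40.9%, 19.8% and 32.1%. The flox HFFC libraries were again below all others. The miR-379/410 group took 865, 1092 and 454 CPM in flox chow, 1318, 1722 and 1021 in flox HFFC and, in KO HFFC, 903, 1318 and 828, and its groups overlapped.

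**Figure D4:**
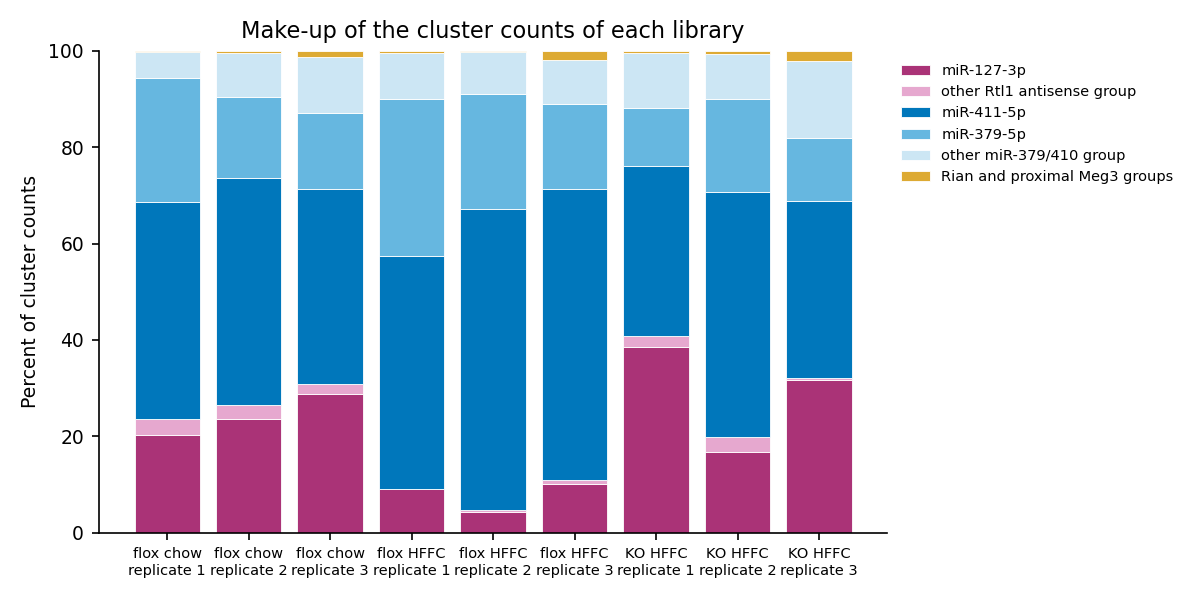
Percent of the cluster counts of each library (y, stacked to 100) held by miR-127-3p, the other members of the Rtl1 antisense group, miR-411-5p, miR-379-5p, the other members of the miR-379/410 group, and the Rian and proximal Meg3 groups (colors), for the 9 libraries (x). The Rtl1 antisense group held 4.66% to 11.0% in flox HFFC, 23.7% to 30.8% in flox chow and 19.8% to 40.9% in KO HFFC.

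The Rtl1 antisense group was examined without miR-127-3p, to ask whether its 8 neighbours moved as it did. They held 19, 29 and 3 counts in flox chow. They held 0, 3 and 4 in flox HFFC and, in KO HFFC, 15, 23 and 2 counts. In CPM, flox HFFC lay below flox chow without overlap, but it overlapped KO HFFC, whose replicate 3 held 2 counts. The gap to flox chow rested on very few counts. Flox chow replicate 3 stood at 13.7 CPM (3 counts, 95% Wilson interval 4.67 to 40.4). Flox HFFC replicate 3 stood at 9.91 CPM (4 counts, 3.86 to 25.5), so these intervals overlapped. On pooled counts the ratio of flox chow to flox HFFC was 6.85 (exact 95% counting interval 3.09 to 17.9) and that of KO HFFC to flox HFFC was 6.27 (2.78 to 16.6), from 51, 7 and 40 counts. None of the 8 had enough counts for the test across all entries.

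The largest part of these counts belonged to miR-136-5p, which like miR-127 is processed opposite Rtl1. Its counts were 15, 16 and 2 in flox chow, 0, 0 and 3 in flox HFFC and, in KO HFFC, 2, 9 and 0. With counts pooled by group, flox chow was 10.3 times flox HFFC (3.24 to 52.7), although KO HFFC replicate 3 also held 0. KO HFFC was 4.02 times flox HFFC (1.06 to 22.4) but only 0.389 times flox chow (0.177 to 0.789). In that last comparison miR-127-3p went the other way, at 1.48 (1.29 to 1.69). These intervals cover counting error only. miR-434-3p, also opposite Rtl1, held 0, 5 and 1 counts in flox chow, 0 in all 3 flox HFFC libraries and 5, 3 and 2 in KO HFFC. Against a floor of 3 counts over the flox HFFC group the pooled ratio was 1.88 for flox chow and 3.66 for KO HFFC. These ratios leave out counting error, and most of the flox chow counts came from 1 library. miR-434-5p and miR-337-3p were seen only in KO HFFC replicates 1 and 2, at 2 and 3 counts for the former and 3 each for the latter. miR-337-5p had 14 counts over 5 libraries and miR-136-3p had 2 counts in 1 library. The remaining members of the group, miR-431-5p and miR-433-3p, held 4 counts each.

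In the miR-379/410 group, the 28 members other than miR-411-5p and miR-379-5p together took 59.7, 135 and 77.9 CPM in flox chow, 140, 159 and 107 in flox HFFC and, in KO HFFC, 175, 155 and 202. KO HFFC lay above flox chow without overlap and overlapped flox HFFC by 1 library. CPM are unscaled, and without scaling factors the median log2 fold change of all tested entries in this comparison was 0.18, against -0.05 with TMM factors. How often a like sum over other entries separates was not examined. The sums over 21 and over 37 members below hold many of the same counts and are not separate results. Among the low members of this group with at least 20 counts, miR-409-3p stood highest in KO HFFC. Its counts were 2, 4 and 2 in flox chow, 2, 4 and 3 in flox HFFC and, in KO HFFC, 6, 7 and 13. In CPM, the KO HFFC libraries, at 14.2, 15.3 and 42.4, lay above those of flox HFFC (6.81, 6.62 and 7.44) and of flox chow (4.12, 5.87 and 9.16). Of the 112 untested entries of the table with at least 20 counts, 3.57% lay above both other groups in KO HFFC without overlap, so miR-409-3p is 1 of 4 such entries. On pooled counts the ratio of KO HFFC to flox HFFC was 3.17 (1.44 to 7.68). That interval covers counting error only and not the spread between mice, and 13 of the 26 KO HFFC counts came from replicate 3.

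None of the other low members of this group with at least 20 counts lay apart from both other groups in KO HFFC, although in CPM miR-382-5p lay above flox HFFC and miR-485-5p above flox chow without overlap. Among the same 112 entries, 12.5% lay above flox HFFC in this way and 9.82% above flox chow. miR-382-5p held 3 counts in each flox chow library, 1, 5 and 0 in flox HFFC and, in KO HFFC, 5, 6 and 5, with flox HFFC replicate 3 at 0. miR-369-5p held 3, 2 and 1, then 4, 2 and 6, then 4, 5 and 1 counts in the same order of groups. miR-485-5p held 1, 2 and 1, then 0, 5 and 3, then 3, 4 and 8. For miR-376a-3p, which differs from miR-376b-3p by 3 edits, the counts were 1, 7 and 1, then 0, 7 and 6, then 0, 2 and 1. miR-379-3p held 0, 11 and 0, then 3, 4 and 0, then 4, 6 and 0.

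The remaining 21 members of the miR-379/410 group held fewer than 20 counts each, from miR-410-3p with 19 to miR-543-3p and miR-667-3p with 1. Their counts were therefore summed. They took 28.8, 26.4 and 13.7 CPM in flox chow (23.0 ± 8.11, SD, n = 3), from 35 counts in all. In flox HFFC they took 78.3, 44.7 and 47.1 (56.7 ± 18.8), from 69 counts. In KO HFFC they took 61.5, 63.4 and 68.5 (64.4 ± 3.62), from 76 counts. In CPM, both HFFC-fed groups lay above flox chow without overlap and overlapped each other. The gap to flox chow rested on few counts, with 3 counts in flox chow replicate 3. The Wilson interval was 17.2 to 48.4 CPM in flox chow replicate 1 (14 counts). It was 30.7 to 65.0 CPM in flox HFFC replicate 2 (27 counts), so these intervals overlapped. Whether a like sum over other low entries separates in this way was not examined. The sum was formed with the members' counts known and has no test.

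**Figure D5:**
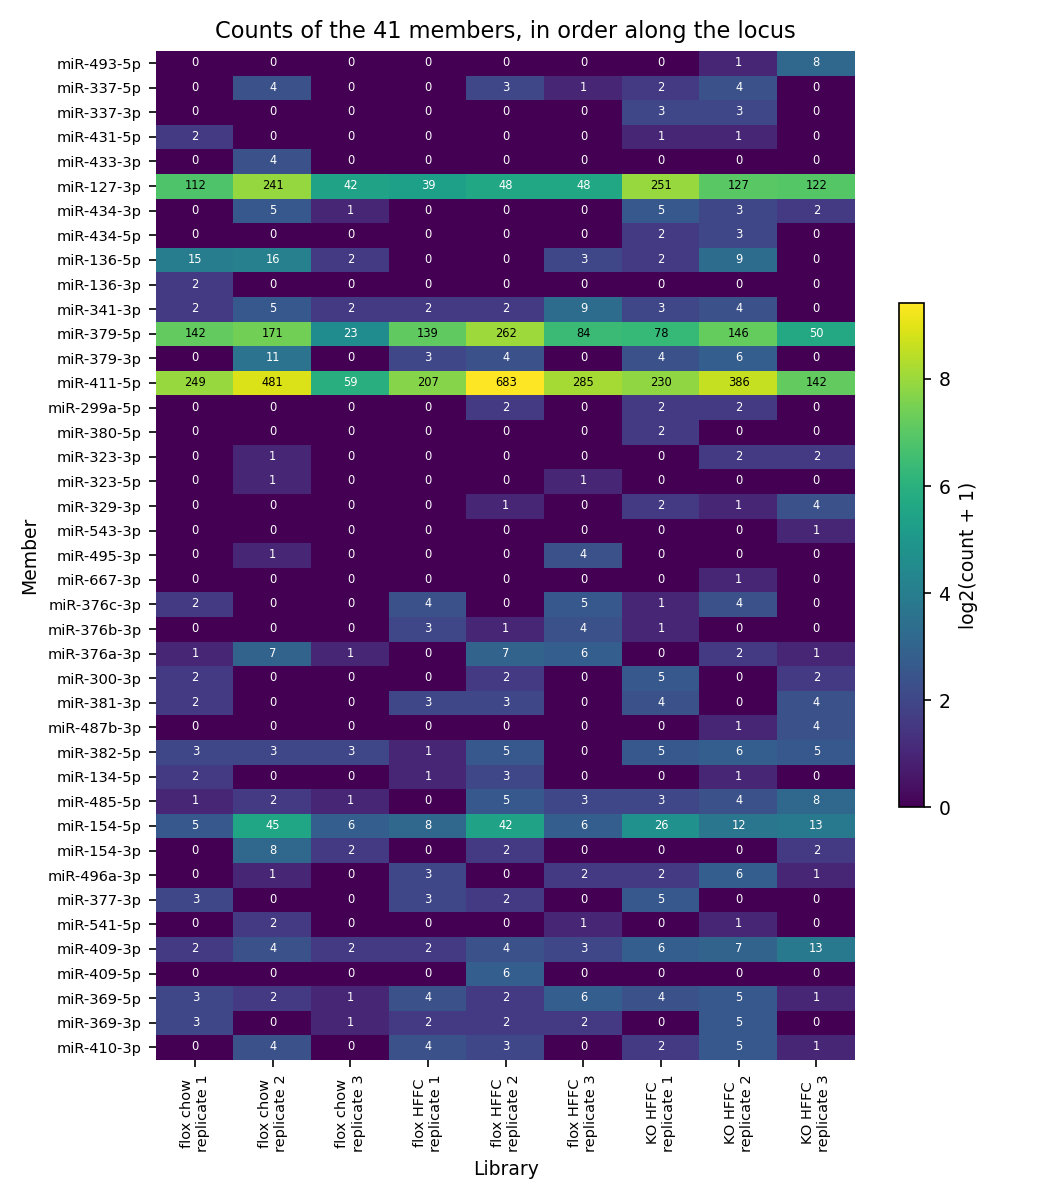
Counts of the 41 members (rows, in order along the locus) in the 9 libraries (columns), with the count printed in each cell and color on a log2(count + 1) scale. The rows of miR-127-3p, miR-379-5p, miR-411-5p and miR-154-5p carry most counts, and the flox HFFC columns hold few counts in the rows from miR-337-5p to miR-136-3p other than miR-127-3p.

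Summed over the 37 members below the filter, the cluster stood highest in KO HFFC. The share was 92.7, 119 and 73.3 CPM in flox chow (94.97 ± 22.9, SD, n = 3), 119, 97.6 and 124 in flox HFFC (114 ± 14.0). In KO HFFC it was 156, 190 and 192 (180 ± 20.3). All KO HFFC libraries lay above the other 6. An equal sum over the other low entries of the table was not taken. Of the 112 untested entries with at least 20 counts, 12.5% lay higher in KO HFFC than in flox HFFC without overlap. Against flox chow it was 9.82%, and against both groups 3.57%. The number of members detected was 19, 22 and 14 in flox chow, 17, 23 and 18 in flox HFFC and, in KO HFFC, 26, 29 and 20. The KO HFFC libraries also detected many entries over the whole table, so nothing particular to the cluster is read from these numbers or from the sum. KO HFFC replicates 2 and 3 held 483 and 443 of the 722 entries, and replicate 1 held fewer than either. The range was 376 to 459 in flox chow and 367 to 448 in flox HFFC. KO HFFC replicates 1 and 3 lay within both ranges, so the groups overlapped. At a similar depth KO HFFC replicate 3 detected 443 at 306626 counts, against 367 at 293708 in flox HFFC replicate 1. The KO HFFC libraries were not the deepest, at 306626 to 457678 miRNA counts. Epithelial markers (5 of 5 found) took 0.0568% to 0.109% in flox chow, 0.0580% to 0.233% in flox HFFC and 0.149% to 0.221% in KO HFFC. In flox chow these shares, 0.0875%, 0.109% and 0.0568%, had the same order as the sums over the 37 members. In flox HFFC replicate 2 had the highest marker share, 0.233%, and the lowest sum, 97.6 CPM. In KO HFFC replicate 3 was highest in both, while replicate 2 had the lowest marker share and replicate 1 the lowest sum. The part of epithelial miRNAs in this sum was not tested. miR-493-5p, the only member of the proximal Meg3 group present, belonged to this sum with 1 and 8 counts in KO HFFC replicates 2 and 3 and 0 elsewhere. miR-341-3p, the only member of the Rian group present, did not follow the sum, with 2, 5 and 2 counts in flox chow, 2, 2 and 9 in flox HFFC and, in KO HFFC, 3, 4 and 0.

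A hairpin yields a 5p and a 3p strand, of which one is usually retained. Both strands were in the table for 12 of the 33 hairpins, with more 5p counts in 6, more 3p counts in 5 and equal counts in 1. For miR-379 the 5p strand held 1095 counts against 28 (97.5%), for miR-154 it held 163 against 14, and for miR-136 it held 47 against 2. The 3p strand led in miR-409 with 43 against 6 and in miR-434 with 16 against 5. miR-369 was more even, at 28 counts of 5p and 15 of 3p. The strands of miR-411 and miR-127 that were counted were the 5p and the 3p respectively, and their partners had no row. Outside the list, 6 further entries from the locus held 11 counts in all, each in 1 library, so the list covers nearly all counts of the locus in the table.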

How the data were processed

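The authors deposited 1 table with counts of 722 mature miRNA entries (591 named as in miRBase, 131 predicted) in 9 libraries of mouse liver exosomes. Beside the counts the authors deposited RPM values, which are the count over 1 total per library (24857274 to 27587060 tags) and gave back each count to within 0.0141, and group means of both. These means, an estimated count and an RPM per group by the authors, were not used. miRNA counts were 0.849% to 2.61% of the tags. The submitters' processing notes name Bowtie2, and the study names miRBase. The study describes a NEBNext kit on exosomal RNA, whereas the labels describe Trizol extraction of tissue and adapters with molecular identifiers. Which applies, whether identifiers were collapsed, the counting tool and the genome build: not given in the sources used here. Per group, the study counts 3 mice per group. 0 columns of sample values were left unmapped.

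The deposited counts were tested with edgeR 4.0.16 in R 4.3.3 (TMM factors, filterByExpr with a minimum of 10 counts, robust quasi-likelihood test, all 9 libraries in 1 fit without covariates). Benjamini-Hochberg adjustment covered the 248 entries tested, and the threshold was 0.05. SE is the log2 fold change over the root of F, and 95% intervals use the t distribution at the degrees of freedom of the fit. CPM were computed on the miRNA counts of a library without scaling factors. Of a count of 0, 3 counts were taken as the floor. The common coefficient of variation between libraries was 55.0%, and replicates always differed beyond counting noise (chi-square over its degrees of freedom at least 60.6). The study used DEGseq. Here counts pooled by group under Poisson sampling, which leave out the spread between mice, were an alternative only. Alternatives covered other scaling, DESeq2 1.42.0, limma-voom (limma 3.58.1), pooling, other filters and samples, a replicate block and leaving out each library.

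The members, groups and lists were chosen with earlier results of these data known. miR-127-3p and miR-411-5p were described in full, other members above the filter by library, and the rest by value where they had at least 20 counts or both strands were measured. miR-409-3p and miR-434-3p were given ratios, and miR-493-5p and the members at 4 counts were named, after their values were seen. Names matched exactly. Positions come from GENCODE M21 and sequences from RefSeq, both GRCm38, which may not be the authors' annotation.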

Additional observations from a re-analysis of the deposited data

How the results depend on the processing

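Of the single members, miR-127-3p kept its direction in every comparison and alternative run. Its log2 fold change over libraries left out ran from -1.38 to -1.04 for the diet, from 1.32 (without KO HFFC replicate 1) to 1.90 for the knockout and from 0.05 to 0.69 for KO HFFC against flox chow. Its adjusted p for the knockout was 0.0949 to 0.802 over the other alternatives, pooling aside. miR-411-5p ran from 0.54 (without flox HFFC replicate 2) to 0.99 for the diet and from -0.99 to -0.51 for the knockout. For KO HFFC against flox chow it reversed, at -0.12 with upper quartile factors, at -0.023 with all library tags as library size, and from -0.19 to 0.25 over libraries left out; the cause was not tested. Pooling libraries, which leaves out the spread between mice, put 140, 162 and 162 entries past the threshold in the 3 comparisons. It did so too for miR-127-3p (-1.46, 2.02 and 0.56) and miR-411-5p (0.66, -0.50 and 0.16).

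The number of entries called over the whole table was 0 in each comparison and stayed 0 for the diet in all alternatives but pooling. For the knockout it was 4 with all library tags, 5 with DESeq2, 7 without a filter and 0 to 5 over libraries left out. It was 1 without flox chow replicate 3 and 5 without KO HFFC replicate 1. For KO HFFC against flox chow it was 1 without scaling factors, 3 with all library tags, 6 with DESeq2, 10 without a filter, 2 with miRBase-named entries alone and 0 to 5 over libraries left out, with 5 again without KO HFFC replicate 1.

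The log2 ratio of the cluster sum over libraries left out ran from 0.17 to 0.71 for the diet, from -0.14 to 0.18 for the knockout and from 0.17 to 0.72 for KO HFFC against flox chow. Without miR-127-3p and miR-411-5p it ran from 0.33 to 0.82, from -0.45 to -0.09 and from 0.10 to 0.57. With TMM-scaled totals the cluster sum of the knockout was -0.25 and with all library tags -0.21, against 0.01 on unscaled totals, all within the spread between replicates.

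The replicate numbers were not taken to pair the samples, since 4 of 9 same-numbered pairs correlated above 0.1 (-0.13 to 0.36) and a library correlated best with its own number in 7 of 18 cases. With a replicate block 0 entries were called in each comparison, miR-127-3p stood at -1.27, 1.69 (adjusted p = 0.206 in edgeR) and 0.41, and miR-411-5p at 0.83, -0.71 and 0.12.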
